A study of Mus musculus with 45 samples.

Results

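The genes described here make, take up and move cholesterol in adipocytes. They are 30 genes named as a list, of which 28 had a probe set whose only gene symbol in the array annotation is that gene, out of 18193 such genes on the array. The 28 genes had 66 probe sets in all, and where a gene had several, the one of highest average log2 value stood for it. Expression of Acat2 and Soat1 was not analysed here. The genes fall into 6 measured enzymes of the mevalonate steps, 11 enzymes of the squalene and sterol steps, 4 genes that control synthesis, 4 uptake receptors and 3 trafficking genes.

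The study followed female C57BL/6 mice that all lacked ApoE. D mice (n = 26) also carried heterozygous deletions of the insulin receptor and of IRS1 (IR+/- IRS1+/- ApoE-/-), and E mice (n = 19) carried the ApoE deletion alone (ApoE-/-). From 8 weeks of age, mice ate a Western or a chow diet for 8 or 16 weeks, and groups are named by genotype, diet and weeks of diet. Mice on a diet for 16 weeks were thus also older than those on it for 8 weeks. Age and time on diet cannot be told apart here. Among D mice, 7 ate chow for 8 weeks (DC8), 5 ate the Western diet as long (DW8), 5 ate chow for 16 weeks (DC16) and 9 the Western diet (DW16). Among E mice, 6 ate the Western diet for 8 weeks (EW8), 8 for 16 weeks (EW16), and 5 ate chow for 16 weeks (EC16). Adipocytes were isolated from parametrial and periovarian fat, and each array holds the adipocyte RNA of 1 mouse, as log2 RMA values. No group without the ApoE deletion and no E group on chow for 8 weeks was part of the design, so no value here refers to a wild-type mouse.

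Cells build cholesterol from acetyl units through mevalonate and isoprenoid units to squalene, which is closed into lanosterol and trimmed to cholesterol. When the membranes of the endoplasmic reticulum hold little sterol, SCAP carries SREBP2 (the product of Srebf2) to the Golgi, where it is cut and released to switch on these enzymes, while INSIG1 and INSIG2 hold SCAP back when sterol is plentiful. SREBP2 works on promoters together with NF-Y and SP1, whose common binding letters are CCAAT and GGGCGG. Adipocytes store much of the body's free cholesterol and obtain it largely from lipoproteins, and NPC1 and NPC2 hand lipoprotein cholesterol out of the lysosome.

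The upstream sequences of 5 genes are shown here to set enzymes whose levels moved together from mouse to mouse (Idi1, Mvd and Nsdhl) beside Hmgcs1, which moved with them less, and the receptor Lrp1, which did not. Hmgcs1 makes the precursor of mevalonate, Mvd makes an isoprenoid unit and Idi1 acts on such units. Nsdhl acts on sterols and Lrp1 is an endocytic receptor. Each sequence is the 250 bases before a RefSeq transcript start (GRCm38.p6), written 5′ to 3′ on the gene's strand. Capitals mark CCAAT or its complement ATTGG and, in Hmgcs1, the sterol regulatory element core TCACNCCAC. Matches of GGGCGG are not marked.
Hmgcs1, chr13:119690101-119690350, plus strand: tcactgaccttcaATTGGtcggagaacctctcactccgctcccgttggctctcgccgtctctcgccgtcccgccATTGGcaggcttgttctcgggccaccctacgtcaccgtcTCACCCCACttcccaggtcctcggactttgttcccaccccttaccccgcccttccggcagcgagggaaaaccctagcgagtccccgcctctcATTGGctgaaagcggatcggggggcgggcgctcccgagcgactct
Idi1, chr13:8885356-8885605, plus strand: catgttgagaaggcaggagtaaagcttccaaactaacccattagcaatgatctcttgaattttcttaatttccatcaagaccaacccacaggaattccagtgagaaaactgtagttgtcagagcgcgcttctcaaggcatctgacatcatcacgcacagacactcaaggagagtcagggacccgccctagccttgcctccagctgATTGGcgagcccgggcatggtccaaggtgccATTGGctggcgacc
Mvd, chr8:122443423-122443672, minus strand: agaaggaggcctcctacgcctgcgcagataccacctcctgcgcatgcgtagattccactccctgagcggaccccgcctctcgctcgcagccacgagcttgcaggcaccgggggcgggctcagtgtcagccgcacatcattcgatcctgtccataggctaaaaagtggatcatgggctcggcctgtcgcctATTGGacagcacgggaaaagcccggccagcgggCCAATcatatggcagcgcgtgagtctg
Nsdhl, chrX:72918271-72918520, plus strand: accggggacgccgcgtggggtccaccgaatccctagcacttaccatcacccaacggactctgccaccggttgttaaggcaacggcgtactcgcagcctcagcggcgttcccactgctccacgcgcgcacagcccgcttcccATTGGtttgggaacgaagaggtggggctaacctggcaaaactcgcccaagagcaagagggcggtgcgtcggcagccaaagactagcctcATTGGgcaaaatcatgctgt
Lrp1, chr10:127621149-127621398, minus strand: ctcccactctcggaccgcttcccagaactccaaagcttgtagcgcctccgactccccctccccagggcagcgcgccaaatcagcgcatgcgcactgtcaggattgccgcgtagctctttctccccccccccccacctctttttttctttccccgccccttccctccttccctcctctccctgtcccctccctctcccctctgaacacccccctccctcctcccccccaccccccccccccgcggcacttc

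Of the 30 genes 24 had an upstream window in the RefSeq table, among them Acat2, counted with the synthesis genes, and Soat1. Sqle, Fdft1, Fdps, Npc1, Scarb1 and Stard4 had no window, so the motif shares do not cover them. CCAAT, on either strand, was in the window of 20 of the 24 genes (83.3%) and of 14 of 15 synthesis genes (93.3%), compared with 39.4% of 14452 genes on the array that had a window. The GC box GGGCGG was in 21 of 24 (87.5%), compared with 53.4%, and the E-box CACGTG in 5 of 24 (20.8%), compared with 8.73%. The sterol regulatory element core TCACNCCAC was in 1 of 24 windows, that of Hmgcs1 at bases -137 to -129 from the start, compared with 1.27% of array genes. Outside the synthesis genes, CCAAT was in the windows of Srebf2, Insig1, Insig2, Vldlr, Npc2 and Soat1. It was not in those of Scap, Lrp1 and Lrp10. A gene with several starts was counted once if any of its windows held the motif, and overlaps between motifs were not removed. These are matches of letters in a short window and not measured binding.

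The 45 arrays did not all span the same range. On 35 arrays the 95th percentile of the log2 values was 10.95 to 11.14 and the SD 2.39 to 2.53, whereas on 10 arrays the 95th percentile was 10.14 to 10.85 and the SD 2.11 to 2.35. These 10 are called narrow-range arrays and hold mice 1 to 7 of DW16 and mice 1 to 3 of EW16, and the genes called with them are also given without them. Of the markers, the mean of 8 adipocyte genes was 12.43 to 12.94 on the 35 arrays and 11.23 to 12.42 on the narrow-range arrays, and the mean of 8 endothelial genes was 9.04 to 9.83 and 7.63 to 8.30. The 5 mesothelial genes averaged 6.33 to 8.47 and 5.73 to 6.77, the 6 stromal genes 11.18 to 12.31 and 10.61 to 11.60, the 10 macrophage genes 8.06 to 9.36 and 7.91 to 9.25, and the 5 lymphocyte genes 5.87 to 6.78 and 5.78 to 6.61. Among the targeted genes, the probe set of Insr with the highest level had group means of 9.15 to 9.48 in D mice and 10.04 to 10.50 in E mice. Irs1 had group means of 10.49 to 11.03 in D mice and 11.09 to 11.21 in E mice. The ApoE deletion is shared by all mice and could not be checked by a contrast.

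After 16 weeks, 3 of the 28 genes were lower in D mice on Western diet than on chow, and none was higher (limma, adjusted p under 0.01 over 45037 probe sets). The 3 were the endocytic receptor Lrp10, the lysosomal cholesterol transporter Npc1 and the SREBP escort Scap, and of these Npc1 alone was also below every chow mouse on the DW16 arrays outside the narrow range. Between these 2 DW16 mice and the DC16 mice 12.8% of all genes did not overlap, so a gap of this kind was common. Over all genes 3.47% were called lower in this comparison. The median log2 difference of the 28 genes was -0.54 (DW16 minus DC16), that of all genes was -0.01, and 24 of the 28 were lower in the mean. Without the narrow-range arrays the median was -0.14 with 18 of 28 lower, and after quantile normalization again it was -0.29 with 19 of 28 lower.

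**Figure D1:**
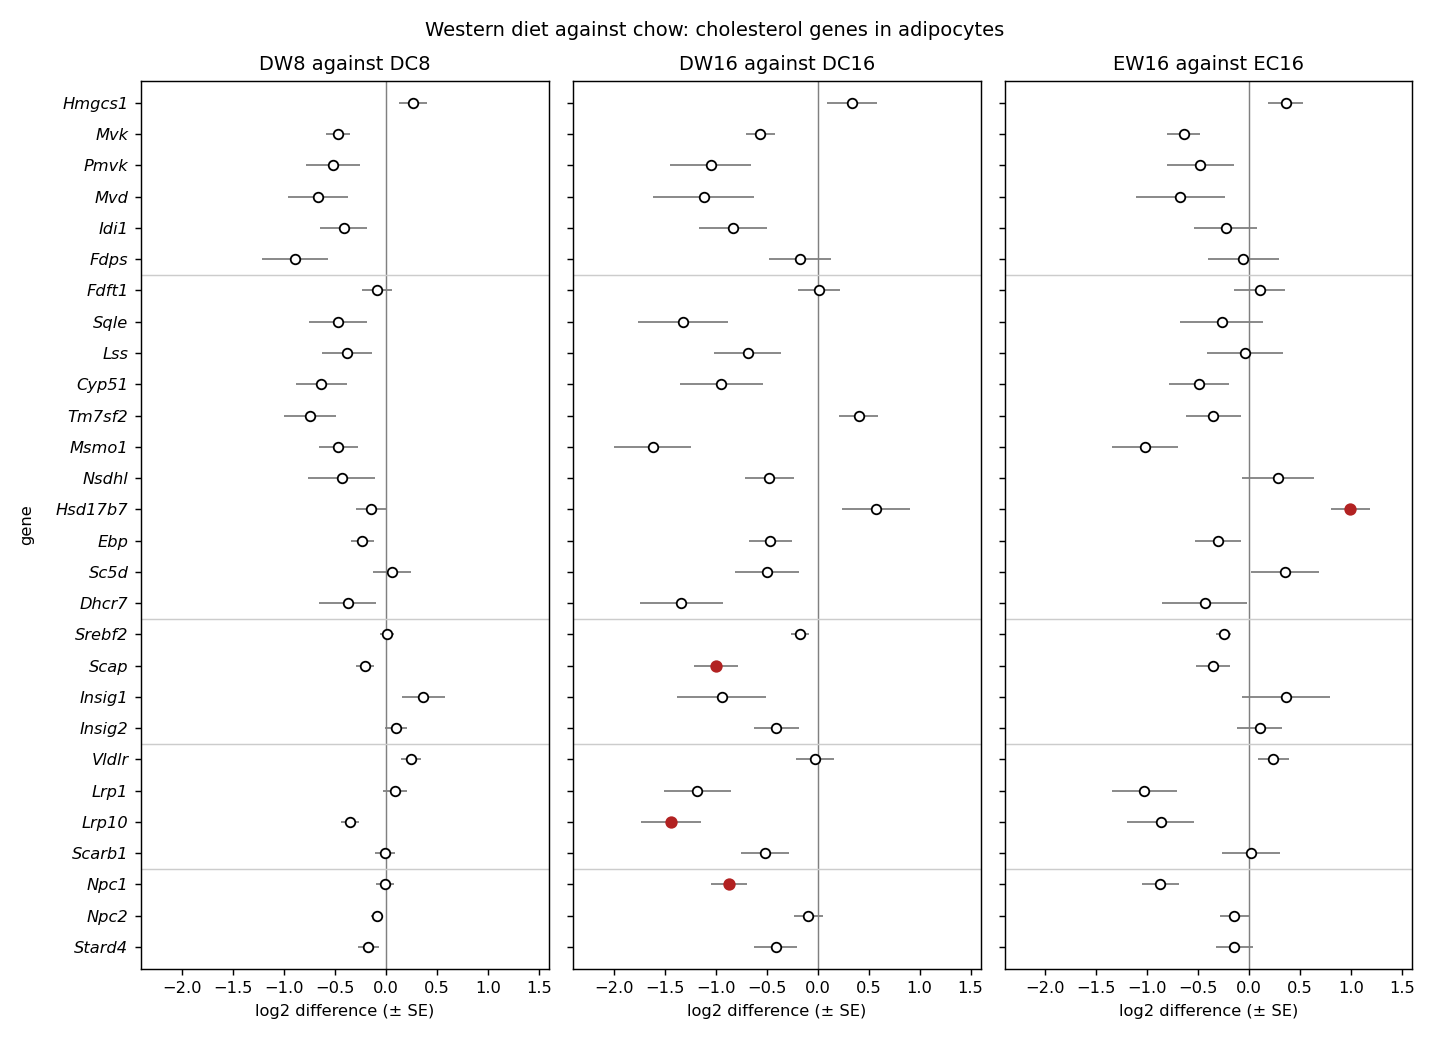
Log2 differences (Western minus chow, ± SE from limma) of the 28 genes at 8 weeks in D mice (left), at 16 weeks in D mice (middle) and at 16 weeks in E mice (right). Rows are grouped by role from mevalonate enzymes at the top to trafficking genes at the bottom, and filled red points are the genes with an adjusted p under 0.01: Scap, Lrp10 and Npc1 in the middle panel and Hsd17b7 in the right panel.

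Npc1 was 7.36, 7.81, 7.48, 7.26 and 7.45 in the 5 DC16 mice. In the 9 DW16 mice it lay between 6.14 and 7.15 with a median of 6.67, so that every DW16 mouse was below every DC16 mouse. The log2 difference was -0.87 (SE 0.177, adjusted p = 0.00789). DW16 mice 8 and 9, whose arrays were not narrow-range, had 6.93 and 6.85 and were also below all DC16 mice. With these as the only DW16 mice the difference was -0.58 (SE 0.158, adjusted p = 0.448).

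In E mice the difference in Npc1 was of the same size. EC16 mice had 7.38, 8.01, 7.49, 7.39 and 7.74, and EW16 mice lay between 6.13 and 7.47 with a median of 6.69. The difference of -0.87 (SE 0.181) had an adjusted p of 0.0105 and did not pass. EW16 mouse 4, at 7.47, was the only EW16 mouse within the chow range. Once the narrow-range arrays were left out, the difference was -0.81 (SE 0.211, adjusted p = 0.0200). After 8 weeks the gene did not show this gap, with 7.36 to 7.69 in DW8 mice and 7.25 to 7.67 in DC8 mice (difference -0.01, adjusted p = 0.985). The change of the diet difference in D mice from 8 to 16 weeks was -0.86 (SE 0.211, adjusted p = 0.0263, and -0.58 with adjusted p = 0.443 without the narrow-range arrays), the smallest adjusted p of any listed gene in that interaction, in which 0 of 28 genes passed and 0.0055% of all genes did.

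Lrp10, an endocytic receptor, was 10.79, 10.88, 10.54, 10.95 and 10.63 in DC16 mice. DW16 mice lay between 8.81 and 10.57 with a median of 8.94, a log2 difference of -1.43 (SE 0.293, adjusted p = 0.00801). The 7 narrow-range DW16 arrays held 8.81 to 9.30, while DW16 mice 8 and 9 had 10.57 and 10.51, within the DC16 range or just below it. With the narrow-range arrays left out, the difference was -0.22 (adjusted p = 0.767). In EW16 mice the narrow-range arrays held 8.78 to 8.88 and the other 5 held 10.32 to 10.52, which were all below the EC16 range of 10.63 to 10.75 (difference without the narrow-range arrays -0.29, SE 0.0685, adjusted p = 0.0136). At 8 weeks Lrp10 was 10.18 to 10.59 in DW8 and 10.44 to 10.86 in DC8 mice (difference -0.35, SE 0.0873, adjusted p = 0.0359).

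Scap was 9.76, 9.83, 9.79, 10.22 and 9.71 in DC16 mice and 8.48 to 9.79 with a median of 8.67 in DW16 mice (difference -0.99, SE 0.213, adjusted p = 0.00928). Again the narrow-range arrays held the low values, 8.48 to 8.74, and DW16 mice 8 and 9 had 9.64 and 9.79. The difference without the narrow-range arrays was -0.15 (adjusted p = 0.875). The 4 control genes were all lower in the mean in DW16 mice, with Srebf2 at 6.89 to 7.30 against 7.19 to 7.46 (difference -0.17, adjusted p = 0.172). In E mice Srebf2 was 6.85 to 7.10 in EW16 and 7.11 to 7.36 in EC16 mice (difference -0.25, SE 0.0728, adjusted p = 0.0472). These ranges did not overlap, but the closest pair was 7.104 and 7.106.

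**Figure D2:**
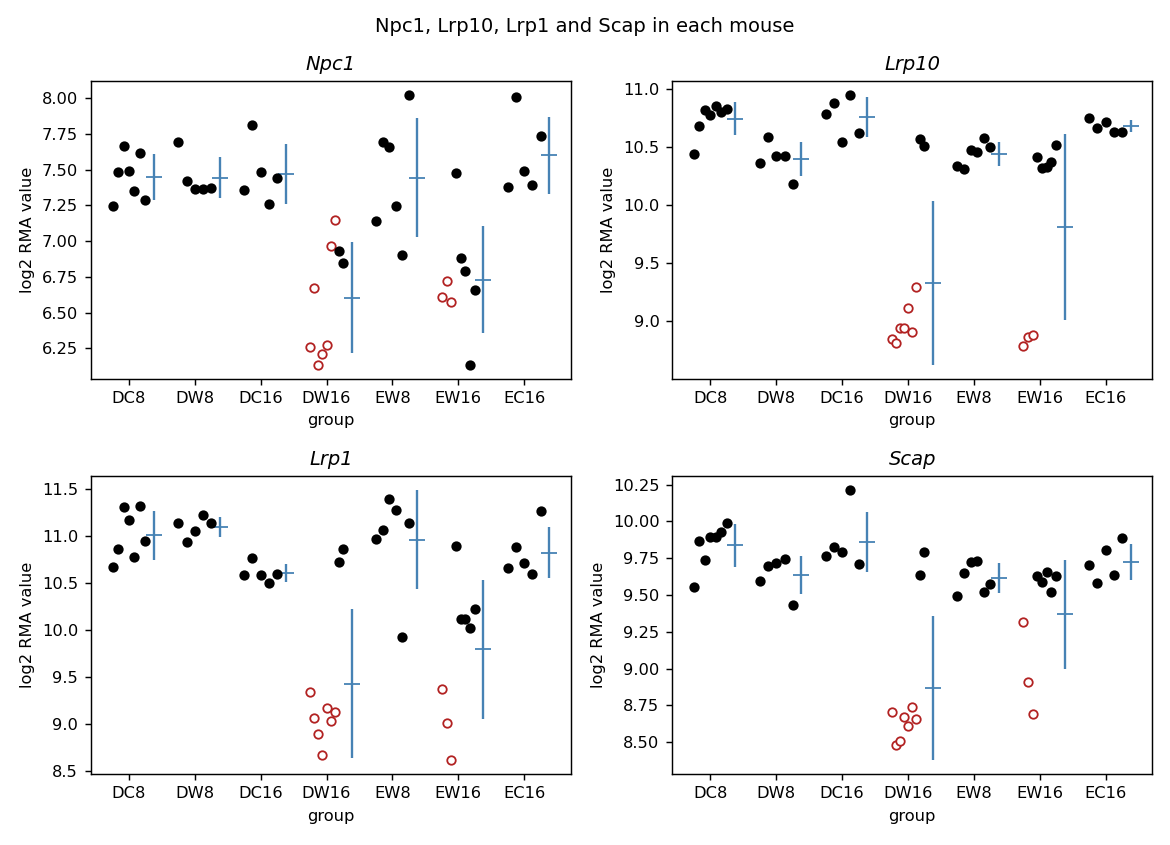
Log2 RMA value of Npc1, Lrp10, Lrp1 and Scap in each of the 45 mice by group (black points, 35 arrays, and open red circles, 10 narrow-range arrays), with the group mean ± SD in blue. Npc1 was low in DW16 and EW16 mice on both kinds of array, whereas Lrp10, Lrp1 and Scap were lowest on the narrow-range arrays, and DW16 mice 8 and 9 lay near the chow mice.

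No synthesis enzyme passed the test in DW16 against DC16 mice, although 13 of 17 were lower in the mean (median -0.56) and 9 of 17 had an unadjusted p under 0.05, as did 37.9% of all probe sets. After quantile normalization again 9 of 17 had one as well, of which 4 were higher and 5 lower. The largest difference was that of Msmo1, a sterol C4 methyl oxidase (-1.62, SE 0.373, adjusted p = 0.0120), which was -0.44 without the narrow-range arrays (adjusted p = 0.715). Dhcr7, a sterol reductase, differed by -1.34 (SE 0.405, adjusted p = 0.0318) and Sqle, the squalene epoxidase, by -1.32 (SE 0.443, adjusted p = 0.0458). On the arrays outside the narrow range Dhcr7 differed by -0.12 (adjusted p = 0.927) and Sqle by -0.17 (adjusted p = 0.916). Sqle was 9.80, 10.08, 10.60, 10.23 and 10.57 in DC16 mice and ran from 7.39 to 10.30 with a median of 9.26 in DW16 mice. DW16 mice 8 and 9 had 10.30 and 9.88, inside the chow range, and the 7 narrow-range arrays spread from 7.39 to 9.85. Without the narrow-range arrays the median difference of the 17 enzymes was -0.15, and 11 of 17 were lower in the mean. With all arrays Tm7sf2, Hsd17b7, Hmgcs1 and Fdft1 were not lower in the mean.

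In E mice at 16 weeks 1 of the 28 genes was higher on Western diet, Hsd17b7, a sterol 3-ketoreductase, and none was lower, while 0.236% of all genes were called higher and 3.52% lower. Hsd17b7 was 8.32, 7.90, 8.49, 8.75 and 8.01 in EC16 mice. EW16 mice lay between 8.99 and 9.88 with a median of 9.11, above every EC16 mouse (difference 0.99, SE 0.191, adjusted p = 0.00767). These values are from 1 of 4 Hsd17b7 probe sets, and the differences of the others are not given here. The 5 EW16 arrays outside the narrow range held 8.99 to 9.27, and without the 3 narrow-range arrays the difference was 0.80 (SE 0.147, adjusted p = 0.00498). After quantile normalization again it was 1.22 and did not pass (adjusted p = 0.0153), and it passed in 3 of 13 fits that each left out 1 mouse. In DW16 mice Hsd17b7 ran from 7.86 to 10.45 with no gap to the DC16 range of 8.52 to 9.17 (difference 0.57, adjusted p = 0.220). The lowest DW16 value was that of mouse 9.

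Once the narrow-range arrays were left out, 3 of the 28 genes were called higher in EW16 than in EC16 mice, and 3.57% of all genes were. Beside Hsd17b7 these were Sc5d, the sterol C5 desaturase (difference 0.82, SE 0.152, adjusted p = 0.00515), and Insig1 (1.04, SE 0.221, adjusted p = 0.00866). Insig1 was 10.83, 10.87, 11.08, 11.22 and 11.56 in EW16 mice 4 to 8 and 10.75, 10.35, 9.85, 10.00 and 9.43 in EC16 mice, so that these 5 EW16 mice were all above the chow mice. Over all genes 12.6% did not overlap between these 5 EW16 and the 5 EC16 mice, and 6 of the 28 did not (Hsd17b7, Sc5d, Insig1, Insig2, Srebf2 and Lrp10). On the 3 narrow-range arrays it was 9.10 to 9.72, and over all 8 EW16 mice the difference was 0.36 (adjusted p = 0.594). Sc5d was 12.12 to 12.34 in EW16 mice 4 to 8, 10.49 to 11.83 on the narrow-range arrays and 10.97 to 11.88 in EC16 mice. Insig2 differed by 0.44 without the narrow-range arrays (SE 0.102, adjusted p = 0.0127).

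Insig1 was the gene with the largest difference of the diet effect between genotypes, but that difference did not pass. The diet difference at 16 weeks was -0.94 in D mice and 0.36 in E mice, and the interaction was -1.30 (SE 0.645, adjusted p = 0.786). DC16 mouse 4 held 12.39, while the other DC16 mice held 9.59 to 10.60. In that interaction 0 of 28 genes and 0.0% of all genes passed, and 2 of 28 genes, Scap and Tm7sf2, had an unadjusted p under 0.05 (limma). Over all probe sets 6.31% had one.

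**Figure D3:**
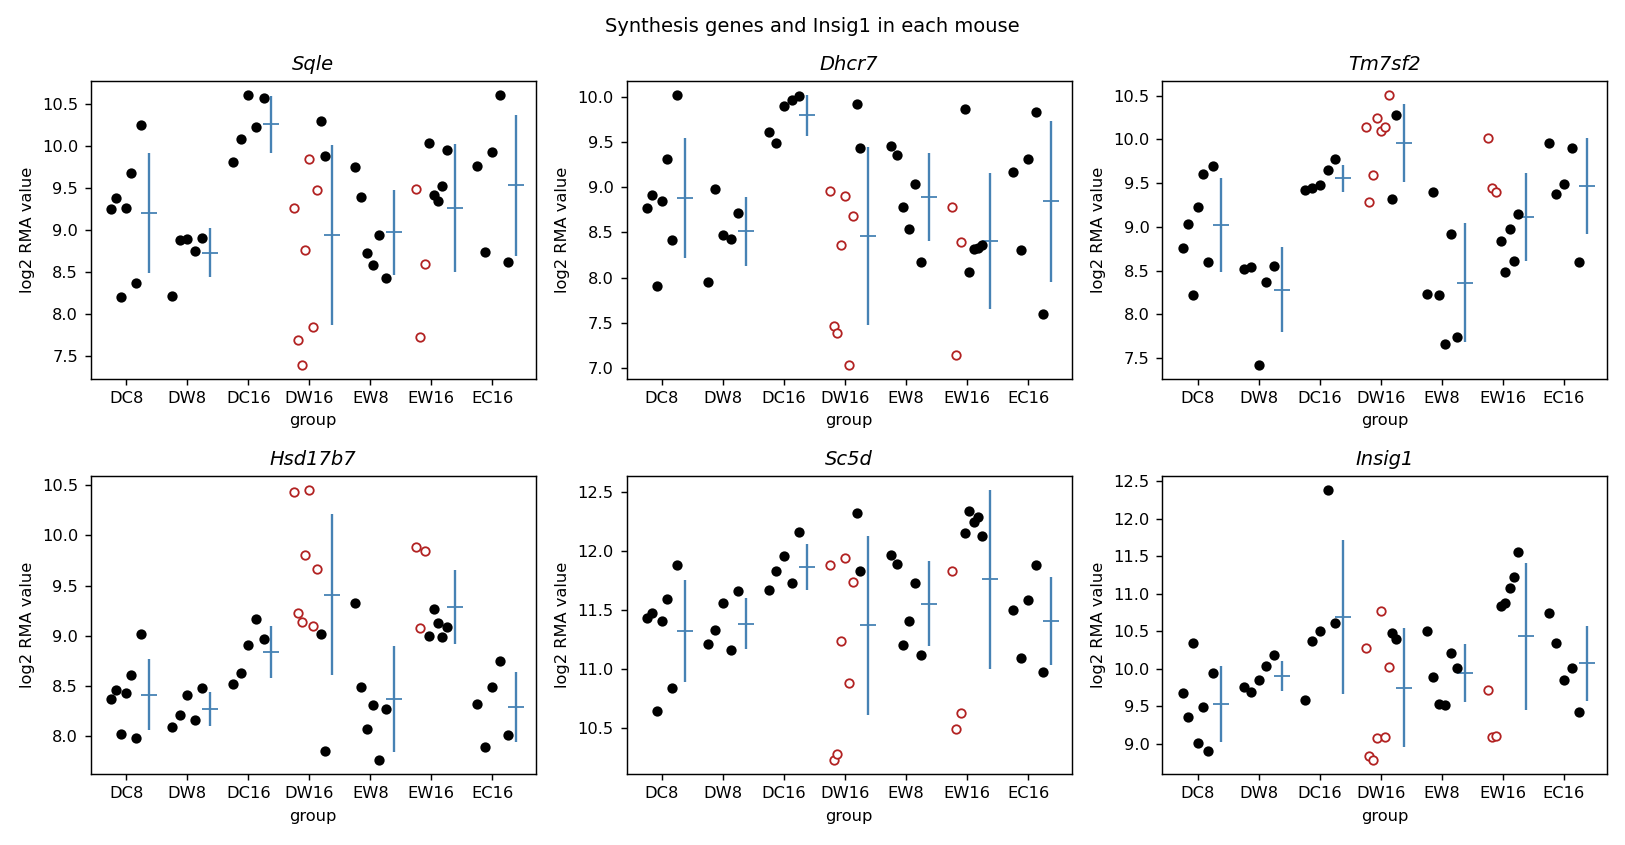
Log2 RMA value of 5 synthesis enzymes and of Insig1 in each mouse by group (black points, 35 arrays, and open red circles, 10 narrow-range arrays), with the group mean ± SD in blue. Sqle had its highest group mean in DC16 mice, Tm7sf2 was higher in every DW16 mouse than in every DW8 mouse, and Insig1 and Sc5d of EW16 mice 4 to 8 lay above the EC16 mice.

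After 8 weeks of Western diet 0 of 28 genes passed in D mice, where 0.797% of all genes did, and 9 of 28 had an unadjusted p under 0.05, as did 19.1% of all probe sets (limma). Of the 17 enzymes 15 were lower in the mean in DW8 than in DC8 mice (median -0.43), while 38.9% of all genes were higher in the mean. The smallest adjusted p was that of mevalonate kinase, Mvk. It was 7.28, 7.79, 7.40, 7.47 and 7.48 in DW8 mice and 7.60 to 8.37 with a median of 7.92 in DC8 mice (difference -0.47, SE 0.117, adjusted p = 0.0344). DW8 mouse 2 lay within the DC8 range. The difference of Mvk was -0.64 between EW16 and EC16 mice (SE 0.166, adjusted p = 0.0276) and -0.56 between DW16 and DC16 mice (SE 0.144, adjusted p = 0.0175), and neither passed. With the narrow-range arrays left out, these were -0.59 (adjusted p = 0.0517) and -0.10 (adjusted p = 0.911).

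DC8 mice differed widely among themselves in the synthesis enzymes. DC8 mouse 7 held the highest value of the group for 13 of 17 enzymes, and mouse 3 the lowest for 11 and mouse 6 for 5. Sqle was 8.20 in mouse 3, 8.36 in mouse 6 and 10.24 in mouse 7, and Fdps, which makes farnesyl diphosphate, was 5.98, 6.71 and 8.04 in the same mice. The mean of the 17 enzymes was 8.92 to 10.25 in DC8 mice (SD 0.471), 8.93 to 9.41 in DW8 mice (SD 0.197) and 10.04 to 10.40 in DC16 mice (SD 0.149). In EC16 mice it was 8.88 to 10.29, with mouse 5 lowest for 15 of 17 enzymes and mouse 4 highest for 14.

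On chow all 17 enzymes were higher in the mean in DC16 than in DC8 mice (median difference 0.56), and 12 of them had an unadjusted p under 0.05. The enzymes varied together from mouse to mouse, as described below, so counts of enzymes are not counts of independent results. None of the 28 genes passed, as none of all genes did (0.0%), and 8.74% of all probe sets had an unadjusted p under 0.05 (limma). The smallest adjusted p was that of the squalene synthase Fdft1 (0.56, SE 0.134, adjusted p = 0.232), and the largest difference was that of Mvd (1.21, SE 0.326, adjusted p = 0.285). Sqle was 9.80 to 10.60 in DC16 mice and 8.20 to 10.24 in DC8 mice, so that these ranges overlapped.

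The genotypes were compared at matched diet and time, and 0 of 28 genes passed in each of the 3 comparisons, with 0.0% of all genes called in each (limma). DC16 mice were higher in the mean than EC16 mice in 16 of 17 enzymes (median 0.46), 7 of which had an unadjusted p under 0.05 against 6.27% of all probe sets, and the smallest adjusted p was that of Hsd17b7 (0.54, SE 0.172, adjusted p = 0.764). These enzymes varied together, so the counts are not of independent results. EC16 mouse 5 averaged 8.88 over the 17 enzymes, and the other EC16 mice 9.44 to 10.29. On Western diet for 16 weeks 3 of 28 genes had an unadjusted p under 0.05, a lower share than the 14.6% of all probe sets, and of these Tm7sf2 had the smallest adjusted p (0.85, SE 0.215, adjusted p = 0.241), and for 8 weeks 2 of 28 had one against 4.13% of all probe sets, where the smallest adjusted p was 0.985. DC16 and EC16 mice enter the diet comparisons as well, so those comparisons are not independent of this one.

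In D mice on Western diet 2 of the 28 genes were called higher at 16 than at 8 weeks, Tm7sf2 and Fdps, and 2 lower, Lrp1 and Npc1. Over all genes 1.1% were called higher and 5.57% lower. The mice of these groups also differed in age. The enzymes as a group depended on the arrays used, with 13 of 17 higher in the mean over all arrays (median 0.25) and 16 of 17 without the narrow-range arrays (median 0.81), among them Mvd (2.14, adjusted p = 0.0405), Pmvk (1.54, adjusted p = 0.0770), Sqle (1.36, adjusted p = 0.0770) and Cyp51 (1.36, adjusted p = 0.119). DW16 mice 8 and 9 lay above every DW8 mouse in 15 of the 28 genes and below in 4, whereas 18.8% of all genes did not overlap in this way. After quantile normalization again 5 genes were called higher, Tm7sf2, Fdps, Fdft1, Lss and Nsdhl, and 1 lower, Lrp1. The share of all genes called in that fit is not given here. On the deposited values another Fdft1 probe set averaged 9.14 on the narrow-range DW16 arrays, 10.32 in DW16 mice 8 and 9 and 9.81 in DW8 mice. Tm7sf2, a sterol C14 reductase, was 8.51, 8.54, 7.42, 8.38 and 8.55 in DW8 mice and 9.29 to 10.51 with a median of 10.15 in DW16 mice, with no overlap (difference 1.68, SE 0.232, adjusted p = 0.00188). DW16 mice 8 and 9 had 9.32 and 10.28, and with these alone the difference was 1.52 (adjusted p = 0.167). On chow it was 8.22 to 9.70 in DC8 and 9.42 to 9.77 in DC16 mice. Fdps was 5.97, 7.05, 6.18, 6.75 and 6.58 in DW8 mice and 7.07 to 9.02 with a median of 7.79 in DW16 mice (difference 1.36, SE 0.298, adjusted p = 0.00837). Every DW16 mouse was above every DW8 mouse, the closest pair being 7.07 and 7.05. With DW16 mice 8 and 9 alone the difference was 1.25 (adjusted p = 0.148). On chow Fdps averaged 7.40 in DC8 and 8.04 in DC16 mice.

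Lrp1, a large endocytic receptor that binds remnant lipoproteins, was 11.14, 10.94, 11.06, 11.22 and 11.14 in DW8 mice and 8.67 to 10.86 with a median of 9.12 in DW16 mice (difference -1.67, SE 0.326, adjusted p = 0.00549). The 7 narrow-range arrays held 8.67 to 9.34 and DW16 mice 8 and 9 held 10.72 and 10.86. On the arrays outside the narrow range the difference was -0.31 (adjusted p = 0.300). On chow Lrp1 averaged 11.01 in DC8 and 10.61 in DC16 mice. Npc1 was 7.69, 7.42, 7.36, 7.37 and 7.37 in DW8 mice, above all DW16 mice (difference -0.84, SE 0.170, adjusted p = 0.00625, and -0.55 with adjusted p = 0.154 without the narrow-range arrays). In bulk RNA a lower level cannot be told apart from fewer cells of a type that holds the transcript. The adipocyte and endothelial marker means were also lower on every narrow-range array than on any other array, the mesothelial and stromal means lower with overlapping ranges, by the values given above, and their part in the result was not tested.

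In E mice 0 of 28 genes passed between EW16 and EW8, where 1.84% of all genes did, and 7 of 28 had an unadjusted p under 0.05, a lower share than the 30.4% of all probe sets (limma). Mvk had the smallest adjusted p (-0.63, SE 0.151, adjusted p = 0.0204), followed by Hsd17b7 (0.91, SE 0.220, adjusted p = 0.0208). Npc1 differed by -0.71 (adjusted p = 0.0362) and Lrp1 by -1.17 (adjusted p = 0.0371). Without the narrow-range arrays these 4 genes differed by -0.57, 0.73, -0.66 and -0.69, with adjusted p from 0.0454 to 0.0854. Insig1 of the 5 EW16 mice outside the narrow range (10.83 to 11.56) lay above all 6 EW8 mice (9.51 to 10.50), a difference of 1.17 (SE 0.188, adjusted p = 0.0123). Between these mice 3 of the 28 genes did not overlap (Sc5d, Insig1 and Insig2), and 3.48% of all genes did not.

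Probe sets of a gene did not always give the same difference. For Hmgcs1 the chosen probe set differed by 0.33 between DW16 and DC16 mice and by 0.20 between DW16 and DW8 mice, whereas 3 other probe sets differed by -0.84, -0.82 and -0.76 and by -0.96, -0.95 and -1.08. The first of these 3 held 10.69 to 12.25 on the narrow-range arrays of DW16 and 10.48 to 11.05 on those of EW16 mice, against 11.65 to 12.66 on the other arrays. With all arrays, the direction of Hmgcs1 therefore held for a probe set and not for the gene. Without the narrow-range arrays the chosen probe set differed by -0.38 and -0.52 (adjusted p = 0.751 and 0.233). On the arrays outside the narrow range, the first of the 3 others averaged 11.96 in DW16, 12.23 in DC16 and 12.34 in DW8 mice.

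For the VLDL receptor Vldlr the chosen probe set was 9.65 to 10.80 in DW16, 9.53 to 10.38 in DC16 and 9.98 to 10.66 in DW8 mice (differences -0.02 and -0.29). Another Vldlr probe set was called lower, with differences of -1.14 (SE 0.235, adjusted p = 0.00826) and -1.44 (SE 0.229, adjusted p = 0.00261), and a further one differed by 0.59 between DW16 and DC16 mice (adjusted p = 0.0175). The lowered probe set held 7.11 to 8.36 on the narrow-range DW16 arrays, 8.21 and 8.58 in the remaining DW16 mice and 8.50 to 9.18 in DC16 mice. Scarb1, the HDL receptor, differed by -0.51 in its chosen probe set and by -1.40 in another (DW16 minus DC16, adjusted p = 0.118 and 0.0189), which held 9.59 to 10.34 on the narrow-range arrays and 11.31 to 12.39 on the others. For the lanosterol synthase Lss, another probe set was higher by 1.27 in DW16 than in DW8 mice (SE 0.274, adjusted p = 0.00778). The chosen probe set of Lss differed by 0.80 and did not pass.

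**Figure D4:**
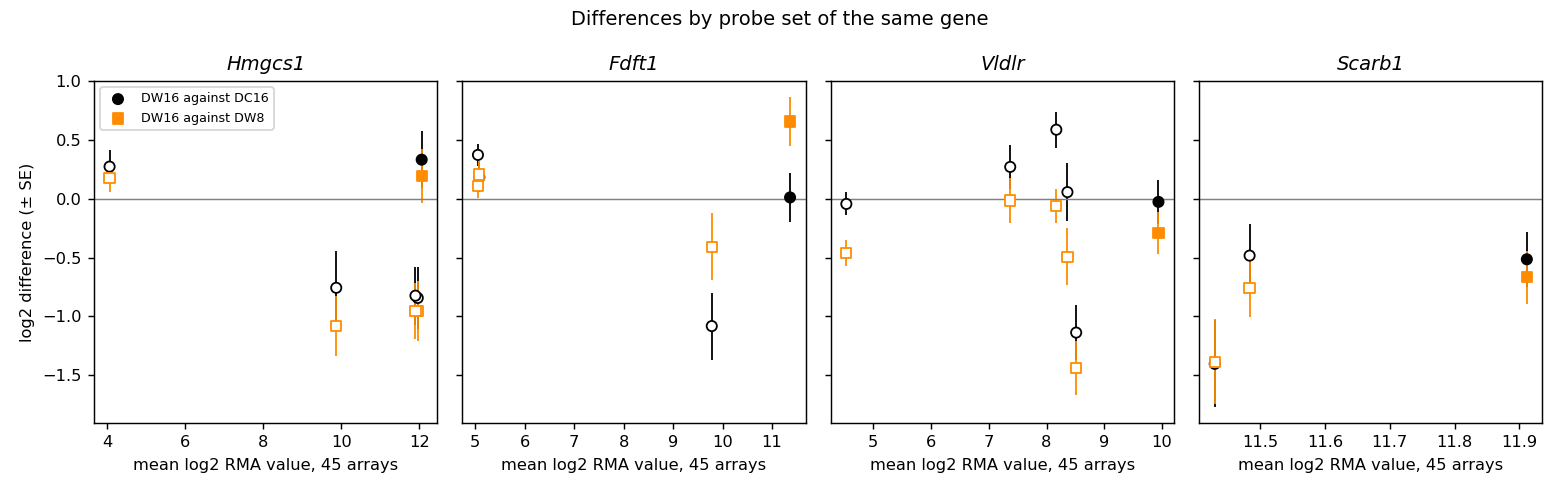
Log2 difference (± SE) of each probe set of Hmgcs1, Fdft1, Vldlr and Scarb1 in DW16 against DC16 mice (black circles) and DW16 against DW8 mice (orange squares), by the probe set's mean log2 RMA value over 45 arrays, with the probe set chosen for the gene filled. Hmgcs1, Fdft1 and Vldlr had probe sets on both sides of 0.

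Within groups the synthesis enzymes rose and fell together from mouse to mouse. Over the 35 mice outside the narrow-range arrays, with each group's mean removed, the 136 pairs of the 17 enzymes had a median Spearman's rho of 0.63, and 91 of them (66.9%) reached 0.5, whereas the median over all pairs of 18193 genes was 0.01 and 2.02% reached 0.5. The strongest pairs were Dhcr7 with Lss (0.91), Fdps with Nsdhl (0.91) and Dhcr7 with Sqle (0.90). These are descriptions over mice whose arrays share the same normalization, and no p is given for them. With all 45 arrays the median over the 136 pairs was 0.57, and 4.39% of all pairs reached 0.5.

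Dhcr7 and Sqle had the highest median rho with the other 16 enzymes, 0.76 each. For Sqle and Dhcr7 Pearson's r was 0.89, and 0.86 once the 2 mice with the most extreme Sqle values were left out, and for Sqle and Idi1 it was 0.87 and 0.85. Fdft1, the enzyme at the branch towards squalene, did not move with the rest (median rho -0.09, between -0.50 with Hmgcs1 and 0.33 with Cyp51), and another of its probe sets gave a rho of -0.05 with Sqle. Hmgcs1 had a median rho of 0.30, and the 3 other probe sets named above gave 0.48, 0.49 and 0.48 with Sqle, against 0.45 for the chosen one. Ebp was intermediate, with a median rho of 0.42.

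The genes outside the synthesis steps were looser. Stard4, a carrier of sterol between membranes, had a median rho of 0.43 with the 17 enzymes and 0.60 with Sqle. Its other probe sets gave 0.31 and 0.47 with Sqle. Srebf2 (0.24) and Insig1 (0.22) had weaker values, and Scap (-0.03), Insig2 (-0.10) and Lrp10 (0.00) were near 0. The other Srebf2 probe set did not follow the chosen one (rho -0.06). Lrp1 and Npc1 ran the other way (-0.37 and -0.33), and these 2 had a rho of 0.64 with each other. The mean of the 10 macrophage markers had a rho of -0.55 with Sqle over the same mice, that of the 5 mesothelial markers -0.49, that of the 6 stromal markers -0.42 and that of the 8 endothelial markers -0.37, while the 8 adipocyte and the 5 lymphocyte markers had 0.07 each. With the mean of the 17 enzymes the order differed. There the endothelial markers had -0.49, the macrophage and mesothelial markers -0.40 each and the stromal markers -0.38. The adipocyte markers had 0.02 and the lymphocyte markers 0.12. The part of the marker genes in the covariation was not tested.

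**Figure D5:**
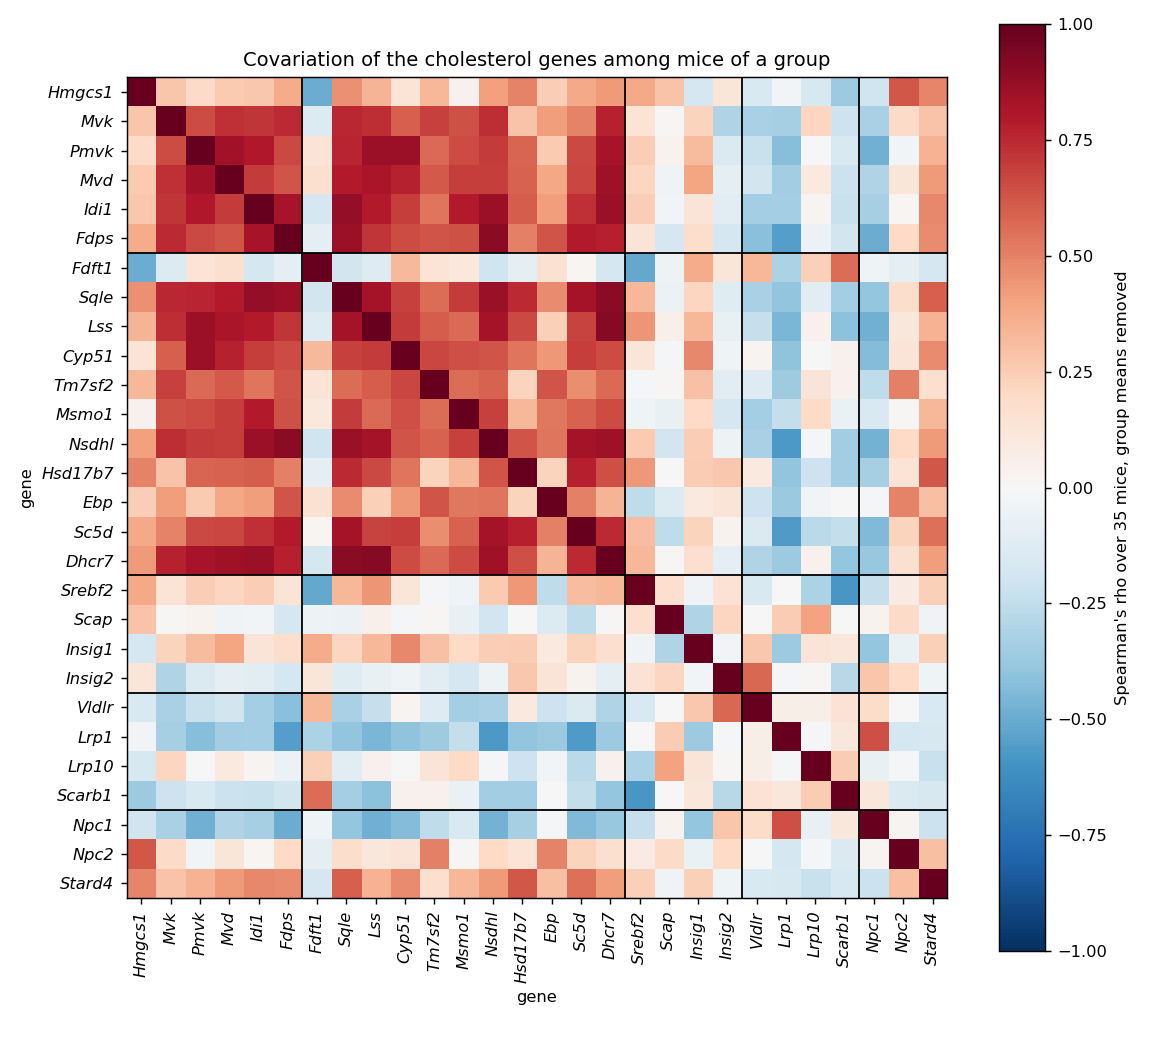
Spearman's rho between each pair of the 28 genes over the 35 mice outside the narrow-range arrays, after removal of each group's mean, with black lines between the roles. The red block holds the synthesis enzymes apart from Fdft1 and Hmgcs1, and Lrp1 and Npc1 are blue against most of that block.

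Among all 18192 other genes, 90 (0.495%) reached a rho of 0.7 with Sqle, and 10 of the 16 other enzymes were among them. Of the 20 genes closest to Sqle 7 were enzymes of the list, namely Dhcr7, Idi1, Nsdhl, Fdps, Sc5d, Lss and Mvd. Others were Ppp2r5b (0.88), a phosphatase subunit, Pnpla3 (0.87), a lipid droplet protein, Acss2 (0.84), which makes cytosolic acetyl-CoA, Erg28 (0.82), a scaffold of sterol demethylation, and Dgat2 (0.79), which makes triglyceride. These 5 were named after their values had been seen.

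A second list held 33 further genes of the pathway, of which 26 were measured. Abcg1, a cholesterol exporter, was called higher on Western diet in the 3 diet comparisons, with differences of 1.55 in DW8 mice (SE 0.198, adjusted p = 0.00162), 1.06 in DW16 mice (SE 0.114, adjusted p = 0.000427) and 1.20 in EW16 mice (SE 0.186, adjusted p = 0.00317). Gramd1b, a carrier of plasma membrane cholesterol, was higher in DW8 (1.26) and EW16 mice (0.88), Abca1, another exporter, in DW8 mice (0.50), and Tmem97, which binds NPC1, was lower in DW8 (-0.48) and EW16 mice (-1.15). Of the 26 genes 3 were called higher and 1 lower in DW8 against DC8, 1 higher and 1 lower in DW16 against DC16, and 2 higher and 1 lower in EW16 against EC16. Over all genes 0.533% were called higher and 0.264% lower in DW8 against DC8, 0.473% higher and 3.47% lower in DW16 against DC16, and 0.236% higher and 3.52% lower in EW16 against EC16. Rnf139, a ubiquitin ligase of the endoplasmic reticulum, was the gene called lower in DW16 mice (-1.16). Once the narrow-range arrays were left out, it differed by -0.42 (adjusted p = 0.674) and Abcg1 by 1.24 (adjusted p = 0.155), while Abcg1, Gramd1b and Tmem97 passed in EW16 mice (1.41, 0.80 and -1.22). Between DW16 and DW8 mice 5 were called lower, namely the lysosomal lipase Lipa, the hormone-sensitive lipase Lipe, Rnf139, Abcg1 and Mbtps1, the protease that cuts SREBP2 first, and none was called higher, where 5.57% of all genes were called lower. With the narrow-range arrays left out, these 5 differed by -0.07 (Mbtps1) to -0.58 (Abcg1), and none passed.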

How the data were processed

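The authors measured adipocyte RNA of 45 mice on Affymetrix MG430-2.0 arrays, with 1 array a mouse, and the deposited values are log2 values per probe set, normalized by the authors with RMA express (version not given in the sources used here). All deposited columns were used (0 left out), and depth has no meaning for arrays, whose number limits the precision. The annotation pairs 34945 of 45037 probe sets with a single gene symbol, 932 with several and 9160 with none.

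Each comparison was a linear model of its own groups (limma 3.58.1 under R 4.3.3, lmFit and eBayes) with no filter on level. A gene was called at a Benjamini-Hochberg adjusted p under 0.01, adjusted over every probe set. The study also used SAM, which was not run here. Means, Spearman's rho and motif searches were computed in Python 3.11.15 with NumPy 2.4.6, SciPy 1.17.1 and pandas 2.3.3, and plots with Matplotlib 3.10.9. Upstream sequences are from RefSeq (GRCm38.p6).

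The genes, lists and boundary of the narrow-range arrays were chosen with earlier results of these data known. Every listed gene may be named, with full statistics for those called and for the smallest adjusted p of a comparison, and of the second list those called. Replicate numbers are shared by groups, and nothing says that they pair mice.

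The fit was tested on simulated data with 100 probe sets shifted by a log2 change of 1 and 100 by 2. Of those shifted by 1, 89 were found for DW8 against DC8, 70 for DW16 against DC16 and 68 for EW16 against EC16. False calls among unshifted probe sets were 3, 2 and 1. Simulated noise was independent between probe sets with the same SD in both groups, without shifts shared by an array. These false calls therefore do not describe comparisons that hold narrow-range arrays. Alternatives were quantile normalization again, arrays centred on their median, 1 spread over all 7 groups, probe sets above the median level only, eBayes with trend and robust, an adjusted p of 0.05, the replicate block, any probe set of a gene, the narrow-range arrays left out and each mouse left out. Leaving out each mouse for the medians was added after seeing the data.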

Additional observations from a re-analysis of the deposited data

Results flagged for a closer look

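In 15 of 196 combinations of a gene and a group, 1 mouse lay far from the others of its group by Dixon's criterion. Chance flags about 1 in 20 such groups. In DW8 mouse 1, Pmvk (9.36, others 9.99 to 10.22) and Sqle (8.21, others 8.75 to 8.90) were low and Npc1 (7.69, others 7.36 to 7.42) was high. In DW8 mouse 3, Tm7sf2 (7.42, others 8.38 to 8.55) and Ebp (9.96, others 10.16 to 10.21) were low. In DC16 mouse 4, Fdps was low (7.20, others 8.09 to 8.45), and Srebf2 (7.46, others 7.19 to 7.26) and Scap (10.22, others 9.71 to 9.83) were high. Cyp51 was low in EW16 mouse 2 (8.32, others 9.16 to 9.91) and in EC16 mouse 5 (8.86, others 10.11 to 10.43). Insig2 was low in DC8 mouse 3 (10.37), in EW8 mouse 5 (10.58) and in EC16 mouse 4 (10.61). Lrp1 was low in EW8 mouse 5 (9.93, others 10.98 to 11.40) and Lrp10 in DC8 mouse 1 (10.44, others 10.68 to 10.86). No listed gene passed the test of a difference of the diet effect between genotypes or between 8 and 16 weeks.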

How the results depend on the processing

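The count of listed genes called depended on the narrow-range arrays and on single mice. Except where stated above, the share of all genes called under a setting is not given here. The counts therefore do not show whether the listed genes differed from others. Against the 3 called in DW16 against DC16, the count was 1 after quantile normalization again, 7 with 1 spread over all groups, 8 at an adjusted p of 0.05 and 0 without the narrow-range arrays. Leaving out each mouse gave 0 to 7, with 7 without DW16 mouse 8, 6 without mouse 9, 1 without mouse 7 and 0 without any other mouse. Lrp10 (adjusted p 0.000549 to 0.0273) and Scap (0.00104 to 0.0278) passed only without DW16 mouse 8 or 9, and Npc1 (0.00244 to 0.0288) only without mouse 7, 8 or 9. Against the 1 called in EW16 against EC16, the count was 0 after quantile normalization again and with eBayes with trend and robust, 2 with arrays centred and with probe sets above the median level only, 3 with 1 spread over all groups and without the narrow-range arrays, and 4 at an adjusted p of 0.05, with 0 to 4 when each mouse was left out (4 without EW16 mouse 4). Hsd17b7 (adjusted p 0.00375 to 0.0267) passed only without EW16 mouse 1, 3 or 4. Against the 4 called in DW16 against DW8, the count was 6 after quantile normalization again (without Npc1, adjusted p 0.0150), 7 with 1 spread over all groups, 9 at an adjusted p of 0.05 and 0 without the narrow-range arrays, with 1 to 8 when each mouse was left out (8 without DW16 mouse 9). Tm7sf2 passed in all 14 of these fits, Npc1 and Fdps in 4 and Lrp1 in 3. Where 0 passed, an adjusted p of 0.05 gave 2 in DW8 against DC8, 4 in EW16 against EW8 and 3 for the difference between 16 and 8 weeks, 1 spread over all groups gave 4 in EW16 against EW8, and each mouse left out gave 0 to 1 (1 without DC8 mouse 1), 0 to 3 (3 without EW16 mouse 4) and 0 to 4 (4 without DW16 mouse 8 or 9). Without the narrow-range arrays the median difference of the 28 genes moved to -0.14 in DW16 against DC16, to 0.53 in DW16 against DW8, to 0.0252 for the difference between genotypes and to 0.14 for that between 16 and 8 weeks. The cause was not tested. All called genes kept their direction in every alternative run.

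With the replicate number as a block the count was 10 in DW16 against DC16 and 8 in DW16 against DW8. It was 0 in EW16 against EC16, 6 for the difference between 16 and 8 weeks, and unchanged in the other 7 comparisons. The shares of all genes called in these fits are not given here. These fits hold only mice whose number occurs in every group compared, so DW16 mice 6 to 9 are left out against DC16 and DW8, and all DW16 arrays in them are narrow-range. Deviations of mice with the same number correlated between -0.44 and 0.53 over the comparisons, so the numbers were not taken to pair mice.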
